A study of Mus musculus with 10 samples.

Results

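The 75 genes described here encode collagens, the matrix metalloproteinases that cleave them, the tissue inhibitors of metalloproteinases (TIMPs) and the lysyl oxidases that cross-link collagen. They were taken by gene symbol from the 54532 genes of the deposited liver expression table, of which 22046 are protein-coding. Symbols of the form Col followed by a chain number, Mmp, Timp and Lox or Loxl were kept when the gene was annotated as protein-coding, which gave 44 collagens, 22 matrix metalloproteinases, 4 TIMPs and 5 lysyl oxidases. Mmp1a, annotated as a polymorphic pseudogene, fell outside this rule.

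Bulk RNA sequencing was performed on livers of 10 C57BL/6J mice that were put on high-fat diet (HFD) at 6 weeks of age, kept on it for 7 weeks and fasted for 5 h. All mice carried murine ASK1 cDNA behind a lox-stop-lox cassette in the ROSA26 locus. The 5 mice labelled ASK1f/f were control littermates without Cre, and the 5 mice labelled ASK1+hep also carried Alb-Cre, which removes the stop cassette under the albumin promoter and so targets hepatocytes. ASK1 is a stress-activated kinase upstream of JNK and p38. The sex of these mice is not given in the sample labels.

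Extracellular matrix in the liver is made chiefly by stellate cells and portal fibroblasts, which deposit fibril-forming collagens when they are activated in fibrosis. Matrix metalloproteinases degrade the matrix, TIMPs block them by binding the catalytic zinc site, and lysyl oxidases oxidise lysines so that collagen chains become cross-linked. The comparison asks whether hepatic expression of these genes differed between livers labelled ASK1+hep and ASK1f/f. By design, the ASK1 transgene is activated in hepatocytes rather than in stellate cells or portal fibroblasts. In whole liver, fewer cells of a type and less RNA per cell cannot be told apart.

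Libraries held 13367742 to 16163378 reads on genes. Expression is given as deposited, in FPKM, that is, reads per gene scaled by gene length and by a library size, so levels can be set beside each other between genes. The library size behind the deposited values was 0.890 times (ASK1+hep replicate 3) to 1.06 times the reads on genes, so values scaled by all reads are named where they change a result. Map3k5, the gene of ASK1, was at 6.74, 6.88, 5.77, 4.71 and 19.8 FPKM in the livers labelled ASK1f/f (in the order of replicates 1 to 5, as in all lists below). The ASK1+hep livers held 16.4, 11.1, 7.68, 12.4 and 15.2 FPKM. The library labelled ASK1f/f replicate 5 held the highest level of all 10 and so went against its label, and the genotypes overlapped (log2 fold change 0.60, exact permutation p = 0.159, n = 5 and 5). Without that liver the remaining Map3k5 levels did not overlap. Every direction between genotypes below therefore compares livers by their labels. For the matrix genes described below whose value turned or moved by more than 1.5 times, log2 fold changes without ASK1f/f replicate 5 are given. They are not given for genes outside the matrix set.

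Of the 75 genes, 32 entered the comparison because 5 or more livers held 10 or more of their reads after scaling to a common depth, namely 21 collagens, 6 matrix metalloproteinases, 2 TIMPs and 3 lysyl oxidases. The other 43 did not. Of these, 6 had 0 reads in all 10 livers (Col9a1, Col19a1, Col26a1, Mmp1b, Mmp10 and Mmp20), where a count of 0 still allows up to 3 reads in a library by counting error alone. The remaining 37 had reads, with at most 34 in any liver and a mean of at most 0.301 FPKM, the value of Timp1.

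Most of the metalloproteinase genes without appreciable reads lie side by side. The 9 Mmp genes on chromosome 9 (Mmp13, Mmp12, Mmp1b, Mmp3, Mmp10, Mmp8, Mmp27, Mmp20 and Mmp7) span positions 7272514 to 7699585 (GRCm38), and 0 of them passed the read filter. Together they held 244 reads over the 10 livers, of which 93 fell on Mmp27. Mmp13 and Mmp8 are collagenases, Mmp3 and Mmp10 are stromelysins and Mmp7 is matrilysin. As examples of start regions from genes with few reads (21 for Mmp13 and 4 for Mmp3 over the 10 livers) and with many, the 250 bases before the RefSeq start of Mmp13 (chr9:7272264-7272513, plus strand) and Mmp3 (chr9:7445572-7445821, plus strand) are printed with those of Mmp14 (chr14:54431348-54431597, plus strand) and Col5a3 (chr9:20815068-20815317, minus strand), which carried the largest positive log2 fold changes among the 32 genes. Sequences are from RefSeq, build GRCm38.p6, written 5' to 3' on the gene's strand, and 0 GENCODE M21 genes cover any of these 4 windows. Capitals mark the AP-1 motif TGANTCA, the TATA box TATAAA, the CCAAT box CCAAT and the GC box GGGCGG, each searched on both strands.
Mmp13: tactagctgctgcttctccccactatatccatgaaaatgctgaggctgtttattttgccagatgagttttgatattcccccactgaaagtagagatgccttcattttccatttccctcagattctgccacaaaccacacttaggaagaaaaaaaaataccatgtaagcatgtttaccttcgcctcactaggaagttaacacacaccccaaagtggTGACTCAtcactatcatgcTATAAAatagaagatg
Mmp3: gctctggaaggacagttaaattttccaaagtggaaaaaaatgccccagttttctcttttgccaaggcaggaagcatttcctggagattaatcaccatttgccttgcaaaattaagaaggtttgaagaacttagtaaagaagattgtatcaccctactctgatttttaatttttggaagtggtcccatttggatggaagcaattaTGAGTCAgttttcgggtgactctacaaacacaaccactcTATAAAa
Mmp14: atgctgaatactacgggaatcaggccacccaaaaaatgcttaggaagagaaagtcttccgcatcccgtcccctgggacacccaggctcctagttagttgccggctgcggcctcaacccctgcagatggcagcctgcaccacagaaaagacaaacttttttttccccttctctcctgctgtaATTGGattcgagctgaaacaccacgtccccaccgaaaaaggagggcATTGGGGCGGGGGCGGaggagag
Col5a3: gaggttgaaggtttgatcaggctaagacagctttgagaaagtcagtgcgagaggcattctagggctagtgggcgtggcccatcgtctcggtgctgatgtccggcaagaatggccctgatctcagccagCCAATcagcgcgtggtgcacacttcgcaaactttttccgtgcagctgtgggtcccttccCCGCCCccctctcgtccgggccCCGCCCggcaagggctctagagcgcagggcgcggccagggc
The AP-1 motif starts 35 bases before the start of Mmp13 and 46 bases before that of Mmp3. Mmp14 has no AP-1 match in this window but holds 2 CCAAT boxes and 2 GC boxes, of which the CCAAT box 23 bases and the GC box 19 bases before the start overlap by 1 base. Col5a3 holds 1 CCAAT box and 2 GC boxes.

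Windows of this kind were available for 57 of the 75 genes (63 windows, as some genes have several starts). AP-1 was found in 8 genes, that is in 12.7% of their windows against 6.75% of all 32851 RefSeq windows of the same length. Apart from Col6a1, these were chromosome 9 Mmp genes, 7 of the 9, and none of those 7 passed the read filter. The GC box was found in 50.8% of the matrix gene windows against 32.7% of all windows, in 0 of the 9 chromosome 9 Mmp genes and in 3 of the 4 metalloproteinase genes that passed the filter and had a window (Mmp11, Mmp14 and Mmp15). TATA boxes were in 19.0% against 12.4% of windows, CCAAT boxes in 30.2% against 33.8%, and the letters TGATGNAA, bound by ATF4 and C/EBP proteins, in 1.59% against 3.45%, with Mmp10 the only matrix gene. A match describes letters in a window and is neither a bound site nor a cause, and Mmp19, Col1a1, Mmp2 and Mmp9 had no window.

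**Figure D1:**
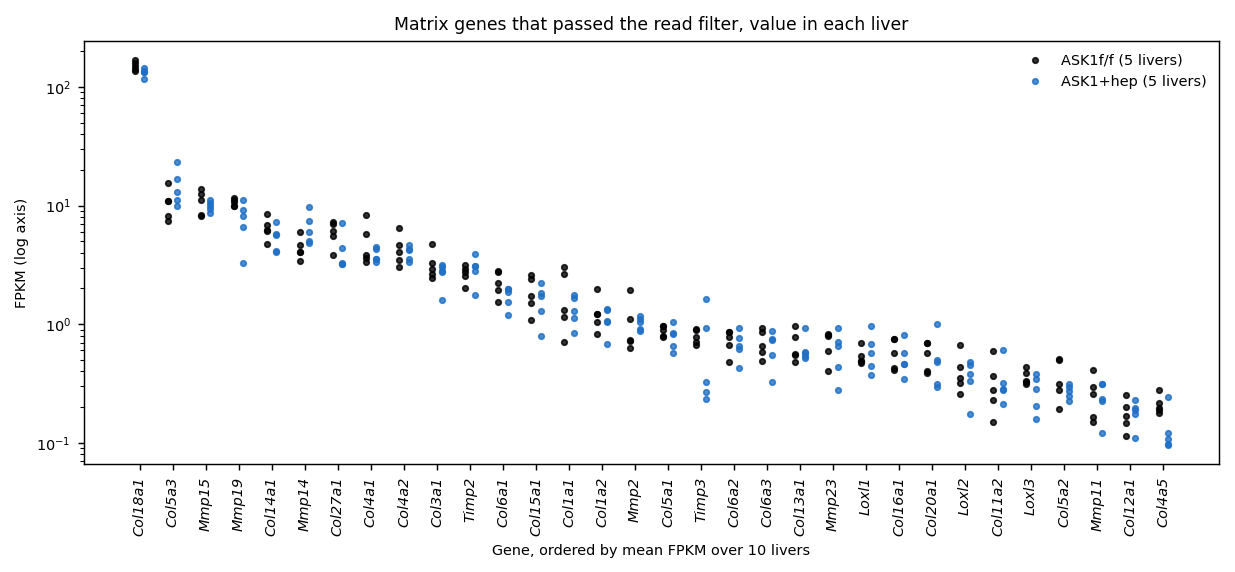
FPKM on a log axis for the 32 matrix genes that passed the read filter, ordered by their mean over 10 livers, with 1 point for each liver (black, ASK1f/f; blue, ASK1+hep). Col18a1 stands at 117 to 169 FPKM, far above all others, and the fibril-forming chains Col1a1, Col1a2 and Col3a1 lie between 0.681 and 4.74 FPKM.

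Levels spanned a wide range. A mean of at least 10 FPKM was reached by Col18a1, Col5a3 and Mmp15, and a mean of at least 1 FPKM by 16 of the 75 genes. Col18a1, which encodes the basement membrane collagen from which endostatin is cleaved, alone gave 70.3 to 77.7% of all collagen FPKM in livers labelled ASK1f/f and 71.3 to 78.2% in livers labelled ASK1+hep. The other collagens summed to 42.3 to 57.6 FPKM in ASK1f/f and to 37.6 to 58.0 FPKM in ASK1+hep. The metalloproteinases summed to 26.9 to 30.7 and 26.2 to 27.7 FPKM, respectively, with Mmp15 or Mmp19 the most abundant in each liver. TIMPs summed to 3.38 to 4.15 and 2.10 to 5.00 FPKM, mostly Timp2, and lysyl oxidases to 1.31 to 1.69 and 1.02 to 1.69 FPKM. The ranges of both genotypes overlapped for each of these sums.

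No matrix gene differed between genotypes after adjustment. With limma on log2(FPKM + 1) and Benjamini-Hochberg adjustment over all 13306 genes tested, 0 of the 32 genes were called at an adjusted p of 0.05, and their adjusted p ran from 0.812 to 0.985, while 0% of all genes tested were called. At an unadjusted limma p under 0.05 there were 2 of 32, or 6.25% (Mmp14 and Mmp19), against 5.77% of all genes tested. An exact permutation p under 0.05 was found for 4 of 32, or 12.5% (Col18a1, Mmp14, Col4a5 and Mmp19), against 5.45% of all genes. In none of the 32 were the genotypes fully separated, compared with 0.398% of all genes that were higher and 0.466% that were lower in every ASK1+hep liver. The log2 fold change was below 0 in 25 of 32 genes (78.1%) against 52.0% of all genes, and above 0 in 7 of 32 against 48.0%. Its median was -0.08 against -0.01. The share of matrix genes below 0 moved with single livers. It was 65.6% without ASK1+hep replicate 4, 71.9% without ASK1f/f replicate 5 and 87.5% without ASK1f/f replicate 4. The share of all genes stayed at 50.8% to 52.4% when each liver was left out. Without the filter, 68.1% of 69 matrix genes were below 0, against 51.1% of all genes. With scaling by all reads in place of the deposited scaling, 84.4% of the matrix genes and 64.8% of all genes were below 0, and of all genes with an unadjusted p under 0.05 the higher ones numbered 271 of 862 rather than 406 of 768. Fold changes on the log2(FPKM + 1) scale understate those of genes with low FPKM.

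**Figure D2:**
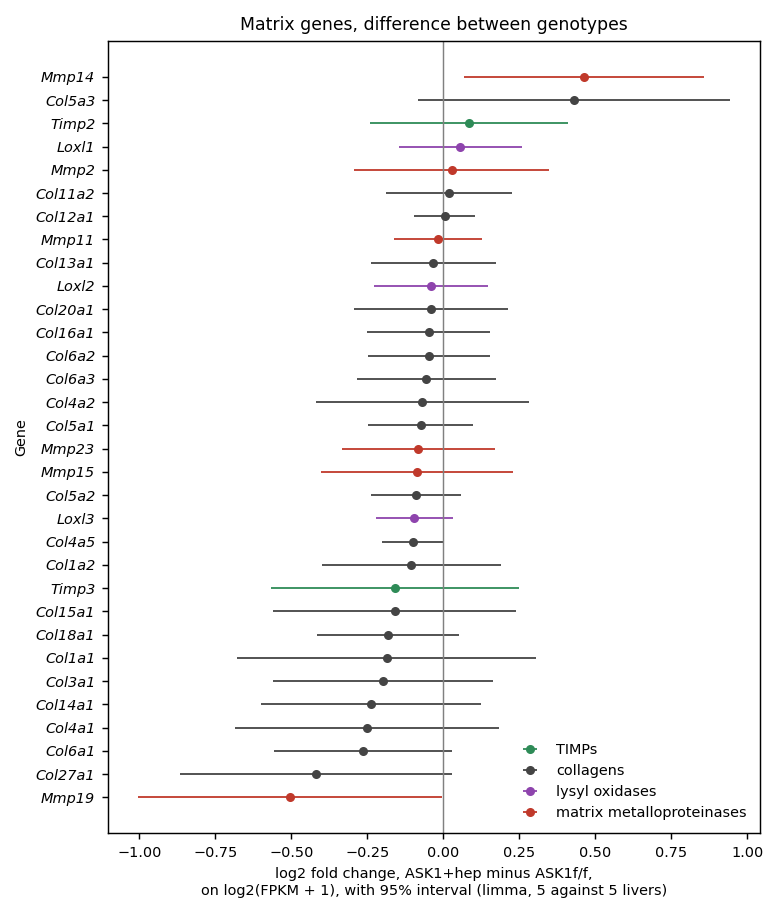
Log2 fold change (ASK1+hep minus ASK1f/f) on the log2(FPKM + 1) scale for the 32 genes, with 95% intervals from limma (5 against 5 livers) and colours for the 4 families. The interval excludes 0 only for Mmp14 (0.07 to 0.86) and Mmp19 (-1.01 to -0.01), before any adjustment for the number of genes tested.

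Mmp14 encodes the membrane-type collagenase MT1-MMP, which cleaves fibrillar collagen at the cell surface and activates pro-MMP2. Its gene spans positions 54431612 to 54445364 of chromosome 14 (GRCm38, plus strand). Its levels were 4.68, 5.93, 4.08, 3.38 and 4.06 FPKM in livers labelled ASK1f/f and 4.79, 7.37, 9.77, 6.00 and 5.05 FPKM in livers labelled ASK1+hep. Only ASK1f/f replicate 2 exceeded any ASK1+hep liver, and ASK1+hep replicate 3 was the highest of all. The means were 4.43 ± 0.960 and 6.60 ± 2.04 FPKM (SD, n = 5 each), a 1.49-fold ratio, with a log2 fold change of 0.46 (SE 0.18, limma p = 0.0253, adjusted p = 0.812; exact permutation p = 0.0397). Without ASK1+hep replicate 3 the log2 fold change was 0.33 and without ASK1f/f replicate 5 it was 0.44. The unadjusted limma p was no longer under 0.05 without ASK1+hep replicate 2 or 3 or ASK1f/f replicate 4.

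Mmp19 encodes a secreted metalloproteinase that acts on basement membrane components. Its gene spans positions 128790910 to 128800824 of chromosome 10 (GRCm38, plus strand). Its levels were 9.92, 9.94, 11.7, 10.7 and 11.1 FPKM in ASK1f/f and 9.16, 6.59, 3.31, 8.22 and 11.2 FPKM in ASK1+hep. The ASK1f/f livers lay close together, 4 of the 5 ASK1+hep livers were below all of them, and ASK1+hep replicate 5 was within their range. The means were 10.7 ± 0.765 and 7.69 ± 2.96 FPKM (SD, n = 5 each), a ratio of 0.721, with a log2 fold change of -0.51 (SE 0.23, limma p = 0.0480, adjusted p = 0.812; exact permutation p = 0.0476). Without ASK1+hep replicate 3 it was -0.27 and without ASK1f/f replicate 5 it was -0.49. Of the 10 fits that left out a liver, only those without ASK1+hep replicate 1 or 5 had an unadjusted limma p under 0.05.

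Exons of Mmp19 overlap those of Tmem198b, which is annotated on the opposite strand from 128800036 to 128804370. The sources used here do not say whether the reads were counted by strand, and without strand reads from the shared bases cannot be assigned to one of the pair. Tmem198b was at 1.55, 1.30, 1.45, 1.54 and 1.18 FPKM in ASK1f/f and at 1.08, 0.483, 0.259, 0.946 and 1.10 FPKM in ASK1+hep, so the genotypes did not overlap, and replicate 3 was again the lowest (log2 fold change -0.47, limma p = 0.00620, adjusted p = 0.804; exact permutation p = 0.00794, the smallest that 5 against 5 livers allow). Whether shared reads contributed to the Mmp19 values was not tested. ASK1+hep replicate 3 was the extreme liver for Mmp14, Mmp19 and Tmem198b alike, and it had the fewest genes with reads (18391, against 19263 to 20315 in the others). Without it, 0 of the 31 matrix genes then passing the filter had a limma p under 0.05, against 603 of 13157 genes tested.

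**Figure D3:**
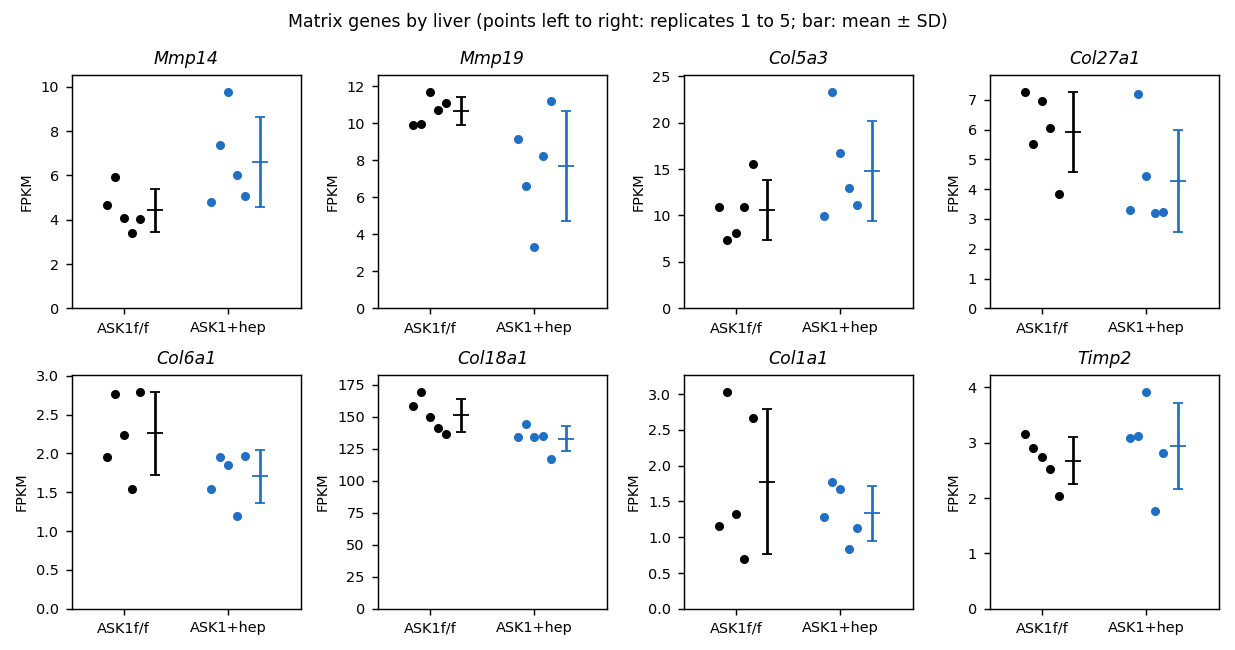
FPKM in each liver for 8 matrix genes, with points from left to right for replicates 1 to 5 of ASK1f/f (black) and ASK1+hep (blue) and a bar for the mean ± SD (n = 5). Mmp14 reaches 9.77 FPKM and Mmp19 is at 3.31 FPKM in the same liver, ASK1+hep replicate 3.

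Among the other metalloproteinases that passed the filter, Mmp15, a second membrane-type enzyme, was at 13.7, 8.40, 11.1, 12.4 and 8.19 FPKM in ASK1f/f and at 9.29, 10.5, 11.2, 9.89 and 8.73 FPKM in ASK1+hep. The genotypes overlapped almost completely (log2 fold change -0.09, or -0.17 without ASK1f/f replicate 5, limma p = 0.563, exact permutation p = 0.587). The gelatinase Mmp2 was at 0.728, 0.716, 1.11, 0.624 and 1.95 FPKM against 0.870, 1.10, 1.16, 0.904 and 1.03 FPKM, with the highest value in ASK1f/f replicate 5 (log2 fold change 0.03, or 0.17 without that liver, limma p = 0.856, exact permutation p = 0.913). Mmp11 and Mmp23 were below 1 FPKM in each liver, with log2 fold changes of -0.02 and -0.08 (-0.01 and -0.05 without ASK1f/f replicate 5). Exons of Mmp11 overlap those of Chchd10 on the opposite strand.

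Of the genes of enzymes raised in inflamed or fibrotic tissue, Mmp9, Mmp12, Mmp8 and Mmp13 were at or near the detection limit. Mmp9, the neutrophil and macrophage gelatinase, was at 0.0677 to 0.367 FPKM in ASK1f/f and 0 to 0.232 FPKM in ASK1+hep. The macrophage elastase gene Mmp12 was at 0.0462 to 0.123 and 0.00936 to 0.227 FPKM, respectively. The collagenase genes Mmp8 and Mmp13 had 17 and 21 reads over all 10 livers. These 4 genes did not pass the read filter, so their difference between genotypes was not detectable at this depth.

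The inhibitor genes were led by Timp2, which binds pro-MMP2 together with MT1-MMP. It was at 3.15, 2.90, 2.75, 2.53 and 2.03 FPKM in ASK1f/f and at 3.09, 3.12, 3.91, 1.77 and 2.81 FPKM in ASK1+hep, and ASK1+hep held both the highest and the lowest liver (log2 fold change 0.09, or 0.02 without ASK1f/f replicate 5, 95% interval -0.24 to 0.41, limma p = 0.577, exact permutation p = 0.611). Timp3, whose product stays bound to the matrix, was at 0.713, 0.889, 0.780, 0.662 and 0.902 FPKM in ASK1f/f and at 0.936, 0.323, 0.267, 0.233 and 1.63 FPKM in ASK1+hep. The ASK1f/f livers were alike, whereas 3 ASK1+hep livers lay below and 2 above all of them, so the SD was 0.106 in ASK1f/f and 0.606 in ASK1+hep (log2 fold change -0.16, limma p = 0.415, exact permutation p = 0.571). Without ASK1+hep replicate 5, its highest liver, the log2 fold change was -0.34 with an unadjusted limma p under 0.05 and a limma adjusted p of 0.382. Exons of Timp3 overlap those of Syn3 on the opposite strand. Timp1, an inhibitor gene induced in activated stellate cells, was at 0.202, 0.358, 0.151, 0.370 and 0.439 FPKM in ASK1f/f and at 0.264, 0.0871, 0.817, 0.0763 and 0.245 FPKM in ASK1+hep, on 1 to 10 reads in each liver. Its highest value was in ASK1+hep replicate 3, and at this depth no difference was detectable. Timp4 had 7 reads over 10 livers.

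The fibril-forming collagens I and III, which make up scar matrix, were low in both genotypes and overlapped. Col1a1 was at 1.16, 3.03, 1.32, 0.701 and 2.66 FPKM in ASK1f/f and at 1.29, 1.77, 1.67, 0.836 and 1.13 FPKM in ASK1+hep (log2 fold change -0.19, 95% interval -0.68 to 0.30, limma p = 0.423, exact permutation p = 0.476). The ASK1f/f group held both the lowest and the 2 highest livers, and without its replicate 5 the log2 fold change was -0.07. Its partner chain Col1a2 was at 1.05, 2.00, 1.23, 0.830 and 1.21 FPKM against 1.07, 1.31, 1.34, 0.681 and 1.05 FPKM (log2 fold change -0.11, limma p = 0.449, exact permutation p = 0.508). Col3a1 was at 2.66, 4.74, 3.30, 2.44 and 2.95 FPKM in ASK1f/f and at 3.01, 2.78, 3.14, 1.60 and 2.77 FPKM in ASK1+hep, with 1 liver standing apart at the low end of ASK1+hep and 1 at the high end of ASK1f/f (log2 fold change -0.20, 95% interval -0.56 to 0.16, limma p = 0.254, exact permutation p = 0.381).

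Collagen V chains nucleate collagen I fibrils. Col5a3 was at 10.9, 7.40, 8.14, 10.9 and 15.6 FPKM in ASK1f/f and at 10.0, 23.3, 16.7, 13.0 and 11.1 FPKM in ASK1+hep. It was several times as abundant as any other fibrillar chain but Col27a1, and the genotypes overlapped, with ASK1+hep replicate 2 highest (log2 fold change 0.43, SE 0.23, limma p = 0.0920, exact permutation p = 0.143). Without ASK1f/f replicate 5 its log2 fold change was 0.57, with an unadjusted limma p under 0.05, and without ASK1+hep replicate 2 it was 0.26. Col5a1 and Col5a2 had log2 fold changes of -0.07 and -0.09 (-0.07 and -0.05 without ASK1f/f replicate 5) and stayed at or below 1.05 FPKM.

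Col27a1, a fibrillar chain best known from cartilage, was at 7.26, 5.51, 6.94, 6.05 and 3.85 FPKM in ASK1f/f and at 3.31, 7.19, 4.43, 3.21 and 3.24 FPKM in ASK1+hep. Apart from replicate 2, the ASK1+hep livers lay below 4 of the 5 ASK1f/f livers (log2 fold change -0.42, SE 0.21, limma p = 0.0644, exact permutation p = 0.127). Without ASK1f/f replicate 5 the log2 fold change was -0.54 and without ASK1+hep replicate 2 it was -0.59. Both had an unadjusted limma p under 0.05 and limma adjusted p-values of 0.742 and 0.909. With scaling by all reads in place of the deposited scaling, Col27a1 also had an unadjusted limma p under 0.05. Col11a2 had a log2 fold change of 0.02, or 0.01 without ASK1f/f replicate 5, and the cartilage chains Col2a1, Col11a1 and Col24a1 did not pass the filter.

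The basement membrane, multiplexin and beaded filament collagens that passed the filter, 8 in all, had log2 fold changes below 0, against 52.0% of all genes, and 0 of 8 had an unadjusted limma p under 0.05, against 5.77%. For 4 of the 8 the direction turned under an alternative, for Col4a2 and Col15a1 with limma-voom quality weights and for Col4a2, Col6a2 and Col6a3 without a single liver. Col18a1 was at 158, 169, 149, 141 and 137 FPKM in ASK1f/f and at 134, 144, 134, 135 and 117 FPKM in ASK1+hep. Only ASK1+hep replicate 2 exceeded any ASK1f/f liver, and the means were 151 ± 13.0 and 133 ± 9.88 FPKM (SD, n = 5 each; log2 fold change -0.18, SE 0.11, limma p = 0.117, exact permutation p = 0.0397). Its ratio of 0.880 rests on at least 11302 reads in each library. Which cell types, hepatocytes among them, gave the Col18a1 reads was not tested. With scaling by all reads in place of the deposited scaling its log2 fold change was -0.26, with an unadjusted limma p under 0.05, while the median of all genes then stood at -0.05.

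Col4a1 and Col4a2, the chains of the ubiquitous collagen IV network, were at 3.36 to 8.39 and 3.03 to 6.50 FPKM in ASK1f/f and at 3.32 to 4.49 and 3.36 to 4.65 FPKM in ASK1+hep, with ASK1f/f replicate 5 highest for both (log2 fold changes -0.25 and -0.07, limma p = 0.231 and 0.676, exact permutation p = 0.317 and 0.746). Without that liver the log2 fold changes were -0.07 for Col4a1 and 0.06 for Col4a2. Col4a5, a collagen IV chain gene on the X chromosome, was at 0.196, 0.180, 0.189, 0.215 and 0.280 FPKM in ASK1f/f and at 0.0960, 0.242, 0.0972, 0.121 and 0.108 FPKM in ASK1+hep. Here 4 of the 5 ASK1+hep livers lay below all ASK1f/f livers and replicate 2 stood among them, on only 9 to 29 reads in each liver (log2 fold change -0.10, limma p = 0.0570, exact permutation p = 0.0397). The ratio of its mean FPKM was 0.626. With scaling by all reads Col4a5 had an unadjusted limma p under 0.05. Col15a1, the other collagen of the Col18a1 type, was at 1.07 to 2.62 and 0.800 to 2.21 FPKM (log2 fold change -0.16, or -0.07 without ASK1f/f replicate 5, limma p = 0.402, exact permutation p = 0.452).

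Collagen VI forms beaded filaments around cells. Col6a1 was at 1.96, 2.77, 2.24, 1.55 and 2.79 FPKM in ASK1f/f and at 1.54, 1.96, 1.86, 1.19 and 1.97 FPKM in ASK1+hep. Its ASK1+hep livers filled the lower part of the range and overlapped with 2 ASK1f/f livers (log2 fold change -0.26, SE 0.13, limma p = 0.0732, exact permutation p = 0.111). Col6a2 and Col6a3 were at 0.481 to 0.862 and 0.489 to 0.934 FPKM in ASK1f/f and at 0.423 to 0.933 and 0.323 to 0.868 FPKM in ASK1+hep (log2 fold changes -0.05 and -0.06, or -0.02 and -0.01 without ASK1f/f replicate 5). Among the fibril-associated collagens, Col14a1 was highest, at 6.06, 8.42, 6.82, 6.24 and 4.77 FPKM against 5.75, 4.04, 5.61, 4.12 and 7.31 FPKM, with overlapping ranges (log2 fold change -0.24, limma p = 0.179, exact permutation p = 0.214). Col9a3, a fibril-associated chain on 2 to 11 reads in each liver, did not pass the filter. It was at 0.0989 to 0.185 FPKM in ASK1f/f and 0.0377 to 0.120 FPKM in ASK1+hep, and in the fit without the filter its log2 fold change was -0.07 (limma adjusted p = 0.828, exact permutation p = 0.0397).

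Lysyl oxidase genes were all below 1 FPKM. Lox itself, the enzyme induced in fibrosis, had 36 reads over 10 livers and did not pass the filter. Loxl1, which acts mainly on elastin, was at 0.472 to 0.693 FPKM in ASK1f/f and 0.374 to 0.969 FPKM in ASK1+hep (log2 fold change 0.06), and Loxl2 at 0.255 to 0.661 and 0.175 to 0.484 FPKM (log2 fold change -0.04, or 0.02 without ASK1f/f replicate 5). Loxl3 was at 0.311 to 0.436 and 0.158 to 0.379 FPKM (log2 fold change -0.10, limma p = 0.125, exact permutation p = 0.135), and its exons overlap those of Htra2 on the opposite strand.

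Chains that assemble into one collagen molecule were compared across the 10 livers on log2(FPKM + 1), with permutation p-values and Benjamini-Hochberg adjustment over 5 pairs. Col1a1 and Col1a2, the chains of collagen I, had Pearson r = 0.868 (permutation p = 0.000690, adjusted 0.00345) and Spearman rho = 0.891 (permutation p = 0.00128, adjusted 0.00640). After leaving out the 2 livers farthest from the median Col1a1 value, ASK1f/f replicates 2 and 5, r was 0.923, and within the 8 livers whose animal tags share a prefix it was 0.865. Over deviations from the genotype means r was 0.859, a value pooled over both genotypes.

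Col4a1 and Col4a2, neighbours whose exons overlap on opposite strands, had r = 0.866 (permutation p = 0.00196, adjusted 0.00490) and rho = 0.697 (permutation p = 0.0307, adjusted 0.0740), but r was 0.546 without ASK1f/f replicates 2 and 5, so this relation rests in part on those livers. For Col6a1 r was 0.788 with Col6a2 (permutation p = 0.00718, adjusted 0.0120) and 0.755 with Col6a3 (permutation p = 0.0115, adjusted 0.0144), with rho of 0.661 (adjusted permutation p = 0.0740) and 0.527 (adjusted permutation p = 0.155). Without ASK1f/f replicate 5 and ASK1+hep replicate 4 these values of r were 0.622 and 0.420. Within the 8 livers sharing a tag prefix r was 0.919 for the collagen IV pair, 0.799 for Col6a1 with Col6a2 and 0.851 with Col6a3. Col5a1 and Col5a2 had r = 0.161 (permutation p = 0.665) and rho = -0.02 (permutation p = 0.972), r = 0.365 without ASK1+hep replicates 2 and 4, and 0.359 within the shared prefix.

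**Figure D4:**
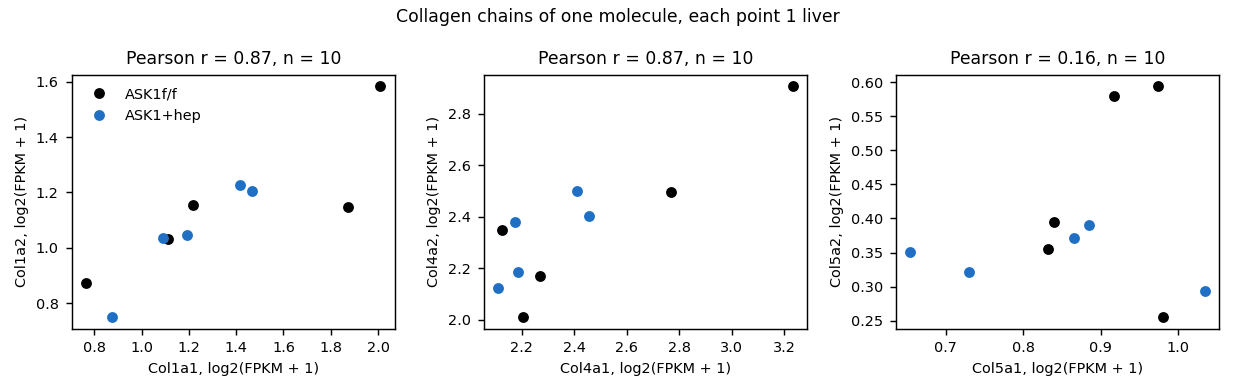
Expression of collagen chain pairs, log2(FPKM + 1), with 1 point for each of 10 livers (black, ASK1f/f; blue, ASK1+hep). Col1a1 and Col1a2 run together along the whole range (r = 0.868), the relation of Col4a1 and Col4a2 (r = 0.866) leans on the highest ASK1f/f livers, and Col5a1 and Col5a2 (r = 0.161) show no such relation.

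Of 13274 genes outside the matrix set, those whose levels followed Col1a1 most closely over the 10 livers were Vim (r = 0.959), Sema3f (0.948), Gde1 (0.921), Tgm2 (0.914) and Dlg4 (0.903). Vim encodes the intermediate filament vimentin of mesenchymal cells and Tgm2 a transglutaminase that cross-links proteins. These are the 5 highest of many correlations and are given as a description.

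Genes that work with collagens had 0 adjusted calls in each list. Of 21 collagen processing genes tested, 0 were higher and 2 were lower at an unadjusted limma p under 0.05, Plod2, a lysyl hydroxylase (log2 fold change -0.15, limma p = 0.0108, exact permutation p = 0.0238), and Colgalt1, which attaches galactose to collagen (-0.49, limma p = 0.0354, exact permutation p = 0.0635). Plod2 was at 0.124 to 0.301 FPKM in ASK1f/f and 0.0251 to 0.152 FPKM in ASK1+hep. Its ratio of mean FPKM, 0.415, rests on only 2 to 25 reads in each liver. Of 21 TGF-beta pathway genes, which drive collagen transcription, the receptor Tgfbr2 was the 1 gene (-0.35, limma p = 0.0289, exact permutation p = 0.0635), while Tgfb1 had a log2 fold change of 0.07 (limma p = 0.714, exact permutation p = 0.794). Of 27 non-collagen matrix genes, Postn, which encodes periostin, was the 1 gene (-0.30, ratio of mean FPKM 0.594, limma p = 0.0489, exact permutation p = 0.103). The shares of all genes tested were 3.05% higher and 2.72% lower. Log2 fold changes were below 0 for 14 of 21 collagen processing, 14 of 21 TGF-beta pathway and 22 of 27 non-collagen matrix genes. For all genes tested this share was 52.0%.

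Among 16 other matrix proteases and inhibitors, 1 was higher and 2 were lower at an unadjusted limma p under 0.05. Of the 16, 11 had a log2 fold change below 0. Adamts5, an aggrecanase, had a log2 fold change of 0.11 (limma p = 0.0387, exact permutation p = 0.0476), and Reck, a membrane inhibitor of metalloproteinases, of -0.19 (limma p = 0.0492, exact permutation p = 0.0635). Plg encodes plasminogen, the hepatocyte-made precursor of plasmin, which activates several metalloproteinases. Plg was at 440, 456, 503, 439 and 441 FPKM in ASK1f/f and at 383, 377, 174, 348 and 386 FPKM in ASK1+hep. All ASK1+hep livers were below all ASK1f/f livers, and replicate 3 was far below the rest (log2 fold change -0.51, limma p = 0.0347, adjusted p = 0.812; exact permutation p = 0.00794, the smallest possible).

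Levels of cell type markers are given because matrix genes come from several cell types. For the marker counts below, 5.77% of all genes tested had an unadjusted limma p under 0.05. A log2 fold change below 0 was found for 52.0% of all genes. Stellate cell and myofibroblast markers, 17 of 19 tested, summed to 63.4 to 112 FPKM in ASK1f/f and 64.9 to 128 FPKM in ASK1+hep. The 63.4 FPKM was that of ASK1f/f replicate 5, with 89.6 to 112 FPKM in the other ASK1f/f livers. Ngfr was the 1 gene with an unadjusted limma p under 0.05 (log2 fold change -0.29, on 9 to 53 reads in each liver). Of the 17, 13 had a log2 fold change below 0, with a median of -0.05. Among the stellate cell markers, Lrat and Des had log2 fold changes of 0.02 and 0.02, whereas Reln and Pdgfrb had -0.17 and -0.06. Acta2, a marker of activated stellate cells, had a log2 fold change of -0.14. Acta2 was at 0.908 to 3.39 FPKM in ASK1f/f, highest in replicate 5, and at 0.875 to 3.75 FPKM in ASK1+hep (limma p = 0.628, exact permutation p = 0.659). Portal fibroblast and mesothelial markers, 9 of 11 tested, summed to 15.3 to 27.5 and 13.6 to 27.5 FPKM, and 6 of the 9 had a log2 fold change below 0. An unadjusted limma p under 0.05 was found for 2, Upk3b (log2 fold change -0.41, limma p = 0.00190, adjusted p = 0.712, exact permutation p = 0.0159) and Msln (-0.42, limma p = 0.0417, exact permutation p = 0.0952), both mesothelial markers. Upk3b held 17 to 67 and Msln 3 to 57 reads in each liver. Their part in the levels of the matrix genes was not tested.

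Kupffer cell and macrophage markers, 13 of 14 tested, summed to 116 to 197 FPKM in ASK1f/f and 94.1 to 177 FPKM in ASK1+hep. ASK1f/f replicate 5 gave the 197 FPKM, and the other ASK1f/f livers were at 116 to 137 FPKM. Of the 13, 9 had a log2 fold change below 0, with a median of -0.13. Cd9, which was higher, was the 1 gene at an unadjusted limma p under 0.05 (log2 fold change 0.53). Sinusoidal endothelial markers, 11 of 11 tested, summed to 46.0 to 68.1 and 38.3 to 68.3 FPKM. Of the 11, 8 had a log2 fold change below 0, with a median of -0.15, and 0 had an unadjusted limma p under 0.05. Neutrophil markers, 3 of 11 tested, summed to 2.54 to 18.9 and 3.42 to 9.59 FPKM. ASK1f/f replicate 5 gave the 18.9 FPKM, and the other ASK1f/f livers were at 2.54 to 8.14 FPKM. Cholangiocyte markers, 5 of 7 tested, summed to 10.0 to 10.6 and 9.95 to 10.5 FPKM. Lymphocyte markers, 3 of 9 tested, summed to 2.41 to 3.48 and 1.84 to 4.63 FPKM. Log2 fold changes were below 0 for 2 of 3 neutrophil, 3 of 5 cholangiocyte and 0 of 3 lymphocyte markers. The lymphocyte median was 0.11. Hepatocyte markers, 7 of 7 tested, summed to 29960 to 41243 and 35122 to 44806 FPKM, as in liver tissue. The 29960 FPKM was that of ASK1f/f replicate 5, with 32214 to 41243 FPKM in the other ASK1f/f livers. Of the 7, 4 had a log2 fold change below 0, with a median of -0.04. Ttr, which was higher, was the 1 gene among them at an unadjusted limma p under 0.05 (log2 fold change 0.52, limma p = 0.0472, exact permutation p = 0.0317). No defining marker of any list was at 0 in all livers.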

How the data were processed

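Livers of 10 HFD-fed mice were profiled by bulk RNA sequencing. The table deposited by the authors holds FPKM for each gene beside its length and position. Per the paper's methods, poly-A RNA was sequenced, reads were cleaned and mapped with Hisat2, counted with FeatureCounts and given as FPKM. The tool versions, genome build and use of strand are not given in the sources used here, and 74 of 75 matrix genes had the coordinates of GENCODE M21 (GRCm38). FPKM multiplied by gene length gave whole reads for 100% of values (within 0.01 read), which served for the filter, the depth and the limma-voom alternatives.

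Genotypes came from the sample labels. They were compared on log2(FPKM + 1) with limma 3.58.1 (R 4.3.3), using its mean-variance trend and no covariate, in place of the authors' count-based DESeq2 test. P-values are two-sided, and single genes also received exact permutation tests that took every way to divide the 10 livers into groups of 5. The fit was tested on simulated data. Libraries of one genotype differed by a chi-square of at least 19.2 for each degree of freedom, so no library was counted as a duplicate. Correlations were permuted with scipy 1.17.1, and figures were drawn with matplotlib 3.10.9.

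The matrix genes and gene lists were chosen with earlier results of these data known. Genes named with values were the main collagens, metalloproteinases, TIMPs and lysyl oxidases, the 5 higher and 5 lower matrix genes with the lowest p, and in other lists the gene with the lowest p in each direction. Other genes (Col9a3, Tgfb1, Lrat, Des, Reln, Pdgfrb, Acta2, Reck, Colgalt1, Msln and overlapping genes such as Tmem198b) were named after their values were seen. Alternatives were testing without the filter or with 10 reads required of every liver, a pseudocount of 0.1, limma-voom with and without quality weights, scaling by all reads, the prefix of the animal tag as covariate, the replicate block, and leaving out each liver in turn.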

Additional observations from a re-analysis of the deposited data

Results flagged for a closer look

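Among 64 groups of 5 livers examined for the matrix genes, 8 held a liver whose gap to its nearest neighbour exceeded 0.71 of the group's range. Chance flags about 1 in 20 groups, and 5 of the 8 rest on 28 reads or fewer in genes that did not pass the read filter. Col3a1 in ASK1+hep replicate 4 was at 1.60 FPKM (232 reads), below the next liver at 2.77 FPKM. Col11a2 in ASK1+hep replicate 2 was at 0.600 FPKM (53 reads) and Col4a5 in the same liver at 0.242 FPKM (21 reads), both above the rest of their group. Mmp12 in ASK1+hep replicate 1 was at 0.227 FPKM (28 reads), and Timp1 in ASK1+hep replicate 3 at 0.817 FPKM (10 reads). In ASK1f/f replicate 5, Mmp8 was at 0.188 FPKM (7 reads) and Mmp13 at 0.122 FPKM (5 reads). Timp4 in ASK1f/f replicate 1 was at 0.0305 FPKM on 3 reads, with 0 in the other livers of its group.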

How the results depend on the processing

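Matrix genes past the adjusted threshold numbered 0 under all 18 alternatives, and the lowest adjusted p of the 25 named genes was 0.382. Over all genes, 0 were called, but 1 with limma-voom quality weights and 0 to 1 when each liver was left out in turn (1 without ASK1+hep replicate 5). Matrix genes at an unadjusted limma p under 0.05 numbered 2 of 32, beside 768 of all 13306 genes. They numbered 4 with limma-voom (733 of all genes), 5 with quality weights (972) and 6 with scaling by all reads (862). The 6 were Col18a1, Mmp19, Mmp14, Col27a1, Col6a1 and Col4a5. Without the filter they were 3 of 69 (Mmp14, Col4a5 and Col9a3), beside 1222 of 26389 genes. With the prefix of the animal tag as covariate, 1 remained (Mmp14), beside 733 genes. When each liver was left out they numbered 0 to 3, beside 546 to 1721 genes. The count was 0 without ASK1+hep replicate 3 (603 genes). It was 3 without ASK1f/f replicate 5 (778), ASK1+hep replicate 1 (1167) or ASK1+hep replicate 5 (1721). The median log2 fold change of the matrix genes stayed below 0, at -0.10 to -0.04 without a liver, -0.15 with a pseudocount of 0.1 and -0.18 with limma-voom. Of the 25 genes, 14 kept their direction throughout. The direction turned for Col4a2 (0.0091), Col15a1 (0.049) and Timp2 (-0.048) with quality weights and for Mmp2 (-0.014) with scaling by all reads, and the cause was not tested. When each liver was left out, it turned for Col1a2 (-0.18 to 0.0015), Col4a2 (-0.16 to 0.062), Col6a2 (-0.10 to 0.0096), Col6a3 (-0.10 to 0.020), Mmp2 (-0.043 to 0.17), Mmp15 (-0.17 to 0.0015), Timp2 (-9.256e-05 to 0.21), Loxl1 (-0.019 to 0.11), Loxl2 (-0.079 to 0.022) and Col11a2 (-0.047 to 0.089). Of the 43 genes below the read filter, 37 had reads and entered only the fit without the filter, at up to 34 reads in a liver.

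In 4 of the 5 numbers the ASK1f/f and ASK1+hep mouse carry neighbouring animal tags, but the sources used here do not state that a number marks a litter or day. Same-numbered livers deviated together weakly (correlations of 0.0212 to 0.174, mean 0.107, against a mean of -0.0275 for other numbers), and 2 of 5 correlated best with their own number, so the comparison without the block was kept. With the replicate block, 0 genes were called, 880 genes had an unadjusted p under 0.05, and the matrix genes among them numbered 2 (Mmp14 and Col6a1, limma adjusted p = 0.727 for both), while Mmp19 was no longer among them. The median log2 fold change was -0.08.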
